A study of Homo sapiens with 16 samples.

Results

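The second stage of the BJ fibroblast model, hTERT-immortalized cells, was compared between 3% oxygen and atmospheric oxygen. The members are the 4 of 16 RNA-seq libraries that the labels give to the BJ hTERT+ cell line: htert_3 replicates a and b, grown at 3% oxygen, which the submitters called moderate hypoxia, and htert_atm replicates a and b, grown at atmospheric oxygen. Both groups carry the introduced telomerase gene, so no difference between them is a difference in immortalization, and both were grown for 6 passages in the same serum-supplemented medium under 5% CO2 and harvested near confluence. BJ is an established line of human skin fibroblasts, and hTERT is the catalytic subunit of telomerase, whose expression lets the cells divide beyond their normal limit. The other stages are primary BJ cells, cells transformed with SV40 large T antigen and metastasizing cells that also carry oncogenic HRAS. The 2 replicates of a group were duplicate plates of 1 line grown in parallel, so every p-value measures the spread between plates, which may be technical.

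Cells sense a fall in oxygen through hypoxia-inducible factors, whose alpha subunits are hydroxylated and degraded while oxygen is plentiful and otherwise pair with ARNT to switch on genes of glycolysis, pH control and mitophagy. A second regulator, NF-kB, is held in the cytoplasm by IkB proteins such as that encoded by NFKBIA and, once released, drives chemokines, interleukins, matrix metalloproteinases and the mitochondrial superoxide dismutase SOD2. Fibroblasts that have divided for long in culture are known for secreting such factors, together with proteases. Growth in culture also depends on E2F factors, which open the genes of DNA replication, and on a later wave of mitotic genes.

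Values are TPM, a transcript level scaled for transcript length and library size, summed per protein-coding gene. TERT was at 115 and 193 TPM at atmospheric oxygen and 143 and 128 TPM at 3% oxygen, so the groups overlapped. All 12 fibroblast markers were expressed, with COL1A2 at 2514 and 2331 TPM at atmospheric oxygen and 2961 and 2984 TPM at 3% oxygen. Their levels were not constant: 6 were higher and 6 lower at 3% oxygen. Among the lower ones LUM was at 4576 and 4051 TPM against 1777 and 1766 TPM, and PDGFRA at 233 and 199 TPM against 112 and 106 TPM. Of the markers of other cells, 6 of 7 epithelial, 4 of 5 endothelial and 4 of 7 leukocyte genes stayed under 1 TPM in all 4 libraries. CD3E and TYROBP, which define T cells and myeloid cells, were listed at 0 in all 4. CD68, which many cell types carry in lysosomes, was at 154 and 162 TPM at atmospheric oxygen against 84.5 and 78.1 TPM at 3% oxygen, and the monocyte marker CD14 fell from 2.83 and 3.19 TPM to 0.184 and 0.245 TPM. The leukocyte marker PTPRC went the other way, at 0.710 and 0.534 TPM at atmospheric oxygen against 1.15 and 1.32 TPM at 3% oxygen. So did the endothelial marker EMCN, at 0.877 and 0.229 TPM against 1.10 and 2.38 TPM, and neither was called. The part of these genes in the results was not tested. The 4 libraries held 11654 to 11765 genes over 1 TPM, and mitochondrially encoded transcripts took 0.851% to 2.85% of each. Read depth is unknown, because TPM keeps none. The average insert size that the labels give was larger in both 3% libraries, 327 and 364 bases against 307 and 312 bases at atmospheric oxygen, and its part in the results was not tested.

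A limited share of genes passed both the p threshold and the 2-fold limit between the oxygen levels. Most of these changed by under 4-fold, and the largest changes were mainly falls. Of 12049 genes tested, 586 (4.86%) passed a limma adjusted p under 0.01 with at least a 2-fold change, 257 (2.13%) higher at 3% oxygen and 329 (2.73%) lower. Past 4-fold (2 on the log2 scale) stood 30 rises and 77 falls, and past 8-fold 5 rises and 24 falls. Fold changes are on the log2(TPM + 0.5) scale, which understates the change of genes near 0. In 44.9% of genes both 3% libraries lay above both atmospheric ones, and in 27.9% both lay below, so a lack of overlap alone was common. Of all genes 58.9% were higher and 41.1% lower by any amount, and 8.91% were higher and 4.39% lower at an adjusted p under 0.01 whatever the size. The median gene was shifted by 0.11 on the log2 scale. Rescaling the libraries by median ratios moved that median to -0.03 and the split to 166 rises and 462 falls, so the direction of small changes depends on the scaling. Each call also rests on few plates. Left out in turn, 3% replicate a, 3% replicate b, atmospheric replicate a and atmospheric replicate b gave 274, 267, 317 and 338 genes, the remaining plate of the group being assumed to vary like the other groups.

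**Figure D1:**
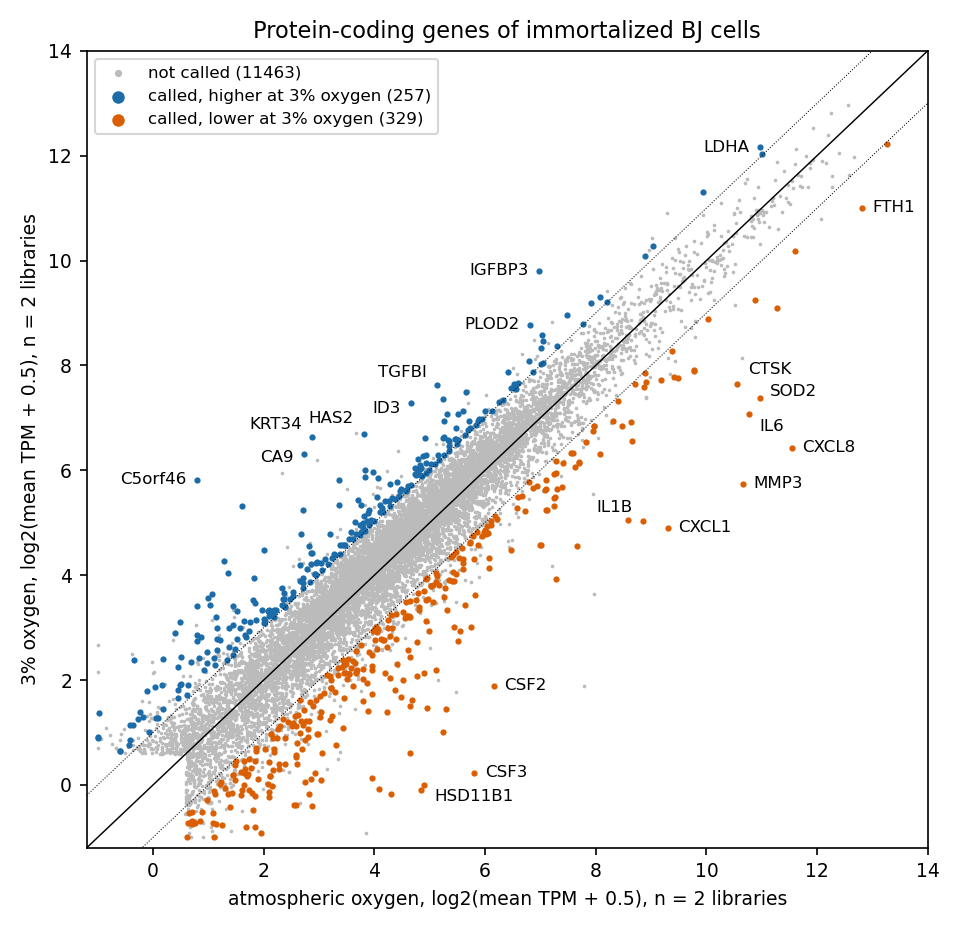
Mean TPM of each tested gene in immortalized cells at atmospheric oxygen (x axis, log scale) and at 3% oxygen (y axis, log scale), with the 257 called rises and 329 called falls coloured and some genes named. Points far below the diagonal, among them CSF3, CXCL8 and MMP3, lie farther from it than most points above it, where C5orf46 stands apart.

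The leading falls were in secreted inflammatory signals. Of 25 cytokine and chemokine genes, 21 were tested, 11 fell and none rose, with a median of -2.53 on the log2 scale beside 0.11 over all genes. CXCL8, the chemokine that attracts neutrophils (chromosome 4, 74606236 to 74609433, GRCh37), was at 3653 and 2324 TPM at atmospheric oxygen and 98.02 and 73.3 TPM at 3% oxygen. That is a 34.9-fold difference in mean TPM (log2 fold change -5.10 ± 0.75, limma adjusted p = 0.000892), and both 3% plates lay far below both others. IL6, the interleukin of the acute phase response (chromosome 7, 22765503 to 22771621), was at 2146 and 1339 TPM against 149 and 118 TPM, a log2 change of -3.67 ± 0.71 (limma adjusted p = 0.00381). IL1B, the secreted interleukin that itself activates NF-kB, was at 589 and 336 TPM against 36.6 and 28.1 TPM. In each of these the atmospheric replicate a was the higher of its pair, and the pair differed less from each other than from the 3% plates.

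The colony-stimulating factors fell too. CSF3, the granulocyte factor, was at 60.3 and 50.4 TPM at atmospheric oxygen and 0.776 and 0.575 TPM at 3% oxygen, near the floor of the data, with a log2 change of -5.57 ± 1.25 (limma adjusted p = 0.00798). CSF2, which acts on granulocytes and macrophages, was at 77.6 and 64.6 TPM against 2.66 and 3.76 TPM. CSF1, the macrophage factor, changed least of the 3, from 107 and 125 TPM to 51.5 and 48.2 TPM. IL24, an interleukin of the IL-10 family, was at 194 and 117 TPM against 16.3 and 13.1 TPM (log2 fold change -3.32 ± 0.45). CXCL1, CXCL2 and CXCL3, which bind a receptor of CXCL8, are near-identical in sequence, so the split of reads among them is uncertain. Their sum was 823 and 595 TPM at atmospheric oxygen and 37.6 and 28.5 TPM at 3% oxygen, 21.5-fold lower, and each of them fell on its own estimate. CCL20, a chemokine for dendritic cells, was listed at 0 in both 3% libraries and at 2.62 and 0.768 TPM at atmospheric oxygen, and did not pass. Without atmospheric replicate a, atmospheric replicate b, 3% replicate a or 3% replicate b the fit called 2, 3, 3 and 2 of these genes, with CXCL2 and IL24 called each time and CXCL8 without atmospheric replicate b or 3% replicate a, while the other calls of the list were lost in each of these fits.

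Promoter letters are shown for genes of this group because NF-kB is known to bind a kappaB motif in them. The motif GGANTTTCC was searched on both strands in the 200 bases before the start of each gene's highest protein-coding transcript. It was found for 7 of 21 tested cytokine genes (33.3%: CXCL1, CXCL2, CXCL3, CXCL5, CXCL6, CXCL8 and IL6) and for 144 of all 12049 genes (1.20%). Each line below gives the strand of the gene, 5′ to 3′, with the match in capitals, and a match is a description of letters only.
CXCL8 (chr4:74606150-74606235, plus strand): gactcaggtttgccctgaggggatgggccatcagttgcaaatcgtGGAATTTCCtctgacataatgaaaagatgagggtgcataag
CXCL1 (chr4:74734987-74735085, plus strand): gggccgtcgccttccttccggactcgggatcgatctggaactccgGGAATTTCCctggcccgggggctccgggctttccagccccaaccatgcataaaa
CXCL2 (chr4:74964936-74965034, minus strand): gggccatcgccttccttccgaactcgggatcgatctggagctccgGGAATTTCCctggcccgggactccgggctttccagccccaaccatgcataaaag
IL6 (chr7:22766702-22766765, plus strand): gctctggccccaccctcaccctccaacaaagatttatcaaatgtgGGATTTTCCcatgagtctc
NFKBIA (chr14:35873983-35874081, minus strand): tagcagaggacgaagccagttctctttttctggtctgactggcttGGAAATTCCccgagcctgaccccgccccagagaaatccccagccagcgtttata
The match lay 91 bases before the transcript start in CXCL8, 78 in CXCL1, 77 in CXCL2, 72 in IL6 and 81 in NFKBIA. The CXCL1 and CXCL2 stretches are nearly the same over their whole length.

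NF-kB's own regulators and targets were lower in part. Of 20 tested genes of this system, 7 fell, none rose and the median was -1.11. TNFAIP6, a secreted hyaluronan-binding protein, was at 56.02 and 50.7 TPM against 6.79 and 8.25 TPM at 3% oxygen (log2 fold change -2.75 ± 0.37, limma adjusted p = 0.000497). NFKBIA, the inhibitor whose promoter is printed above, was at 210.4 and 183 TPM against 71.1 and 61.1 TPM. Both 3% plates lay below both others. IRAK2, a kinase of the interleukin-1 receptor, BIRC3, NFKBIE, the adhesion molecule ICAM1 and TNFAIP2 were the other calls, with log2 changes from -2.05 for IRAK2 to -1.06 for TNFAIP2. The subunit gene NFKB2, at 83.5 and 73.05 TPM against 43.4 and 39.4 TPM, missed the fold limit at -0.91 ± 0.21. Only TNFAIP6 was called whichever plate was left out, and 1 of the 7 was called in each such fit.

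SOD2, the mitochondrial superoxide dismutase and a known NF-kB target (chromosome 6, 160090101 to 160183561), was the only antioxidant enzyme of 16 tested to be called, at 2208 and 1780.0 TPM against 179 and 153 TPM at 3% oxygen. The log2 change was -3.58 ± 0.45 (limma adjusted p = 0.000401), and it was called without any 1 of the 4 plates. Among 12 tested complement and acute phase genes 3 fell, the serine proteases C1R (899 and 853 TPM against 247 and 229 TPM) and C1S (146 and 129.7 TPM against 37.9 and 37.2 TPM) and C1QTNF1. C1R alone stayed called without each plate. Of 33 interferon-stimulated genes none passed the limma test. An unadjusted limma p under 0.05 was reached by 8 of them, beside 4747 of all 12049 genes tested. Of the 33, 31 were lower, beside 41.1% of all genes, and the median was -0.84. In 28 both 3% libraries lay below both others, beside 27.9% of all genes. With only the 2 groups in the fit 6 were called lower, and with array weights 1. IFITM1, which restricts viral entry, was at 514 and 449 TPM against 178 and 152 TPM, and was not called (-1.54 ± 0.61, limma adjusted p = 0.0848).

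Secreted and lysosomal proteases formed the next set of falls. Of 13 tested matrix metalloproteinase and inhibitor genes 4 fell, none rose and the median was -0.90. MMP3, stromelysin-1 (chromosome 11, 102706532 to 102714340), was at 1972 and 1255 TPM at atmospheric oxygen and 49.97 and 56.5 TPM at 3% oxygen, 30.3-fold lower (log2 fold change -4.88 ± 0.33, limma adjusted p = 1.72e-05). MMP1, the interstitial collagenase, was at 1049.8 and 704 TPM against 252 and 229.9 TPM, and MMP14, the membrane-type collagenase, was at 494 and 469 TPM against 212 and 199 TPM. MMP7, a small secreted protease, was near the floor at 1.44 and 1.82 TPM against 0 and 0.209 TPM. The inhibitor TIMP1 was at 1069 and 1180.5 TPM against 610.3 and 597 TPM and missed the fold limit at -0.90 ± 0.18. Median-ratio rescaling called 6 of the list, and the fits without atmospheric replicate a, atmospheric replicate b, 3% replicate a and 3% replicate b called 2, 3, 1 and 2, MMP3 in each.

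Among lysosomal genes the falls were smaller in size. Of 26 tested, 11 fell and none rose, beside 2.73% of all genes called lower, and the median was -0.96. In 23 both 3% libraries lay below both others, beside 27.9% of all genes. CTSK, the collagen-degrading cathepsin K (chromosome 1, 150767356 to 150782053), was at 1641 and 1374 TPM against 202 and 196 TPM at 3% oxygen (log2 fold change -2.91 ± 0.38, limma adjusted p = 0.000452). CTSB, cathepsin B, was the most abundant of the tested lysosomal genes at atmospheric oxygen, at 2986 and 3196 TPM against 1194 and 1116 TPM (-1.42 ± 0.10, limma adjusted p = 1.72e-05). CTSD, the aspartic cathepsin, was at 332 and 467 TPM against 128 and 114 TPM. The falls were not confined to proteases. NPC2, which carries cholesterol out of lysosomes, was at 467 and 464 TPM against 202 and 181 TPM. Without atmospheric replicate a, atmospheric replicate b, 3% replicate a or 3% replicate b the counts were 10, 10, 9 and 8, with CTSA, CTSB, CTSD, CTSF, CTSK, CTSL and NPC2 among those called each time.

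**Figure D2:**
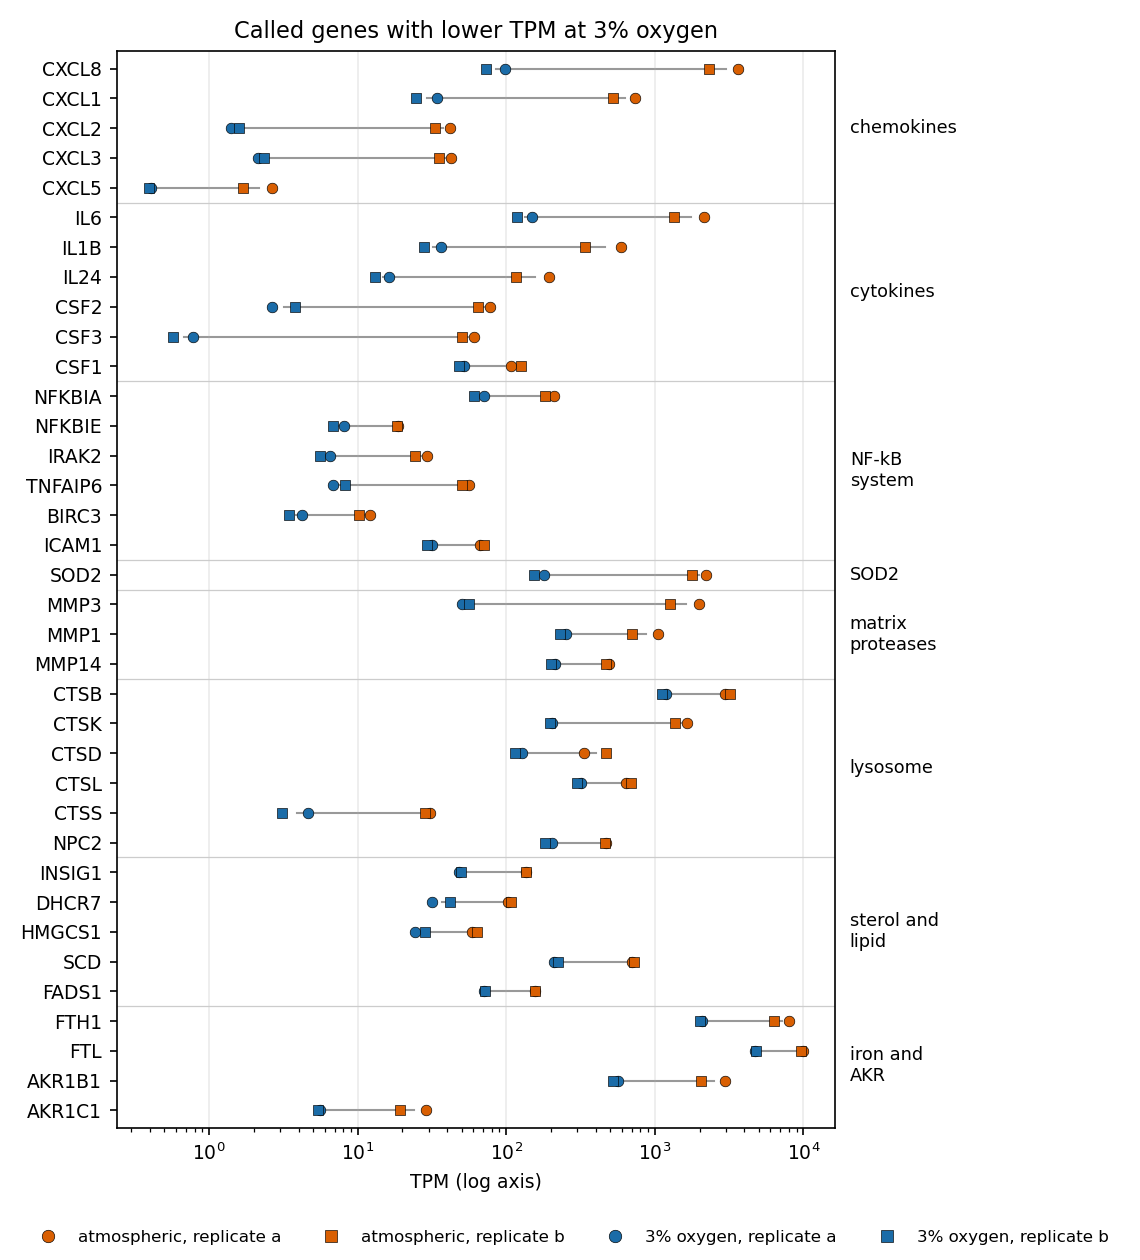
TPM (log scale) of genes that fell at 3% oxygen, 1 dot per library for both atmospheric and both 3% libraries of immortalized cells, with a line joining the 2 group means. For each gene shown the 3% pair lies below the atmospheric pair, and the CXCL8 means are 34.9-fold apart.

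A few genes of lipid synthesis fell as well. Of 28 tested genes of cholesterol and fatty acid synthesis 5 fell and 27 were lower, with a median of -0.73. Of all genes 2.73% were called lower and 41.1% were lower by any amount. SCD, which makes monounsaturated fatty acids, was at 707 and 727 TPM against 209.6 and 223 TPM at 3% oxygen. DHCR7, the last enzyme of cholesterol synthesis, was at 103 and 107 TPM against 31.6 and 41.99 TPM. INSIG1, which retains the sterol sensor in the endoplasmic reticulum, was at 135 and 136 TPM against 48.4 and 49.3 TPM (log2 fold change -1.46 ± 0.17, limma adjusted p = 0.000241). In all 3 genes the groups lay well apart. HMGCS1 and the desaturase FADS1 were the other calls, while FASN, fatty acid synthase, did not pass, with its atmospheric plates at 21.9 and 65.6 TPM. Each fit without 1 plate called 3 of the list, DHCR7, INSIG1 and FADS1.

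Among 23 tested NRF2 targets and aldo-keto reductases 4 fell, and the median was -0.24. The ferritin chains FTH1 and FTL, which store iron, were among the most abundant transcripts of these cells. FTH1 was at 7987 and 6307 TPM against 2071 and 2019 TPM at 3% oxygen (log2 fold change -1.80 ± 0.17), and FTL was at 9892 and 9672 TPM against 4689 and 4825 TPM. AKR1B1, aldose reductase, was at 2947 and 2033 TPM against 567 and 525 TPM, and AKR1C1 was at 28.6 and 19.2 TPM against 5.54 and 5.42 TPM. All 4 stayed called without each plate. AKR1C1 shares long stretches with other AKR1C genes, so its level is uncertain. NQO1, the quinone reductase, was not called at 521 and 537 TPM against 646 and 646 TPM, nor was HMOX1. Of 22 p53 target genes 4 fell, SESN2, GDF15, BBC3 and TP53INP1, and the median was -0.63. SESN2, a stress sensor of the mTOR pathway, was at 13.9 and 16.1 TPM against 5.07 and 5.097 TPM and stayed called without each plate. GDF15, a secreted stress cytokine, was at 16.2 and 13.9 TPM against 2.25 and 3.37 TPM, and was called in no fit without a plate. CDKN1A, the p53-driven inhibitor of cell division, was at 237 and 282 TPM against 161 and 166 TPM and did not pass.

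Single genes of other lists fell. ASS1, which makes argininosuccinate, was at 695 and 662 TPM against 228 and 211 TPM at 3% oxygen, and SAT1, which breaks down polyamines, was at 178 and 131 TPM against 59.6 and 63.7 TPM. Neither was called once any 1 plate was left out. TRIB3, a pseudokinase of the amino acid response, was at 39.1 and 45.02 TPM against 16.7 and 15.5 TPM and was the only call of 19 genes of the unfolded protein and amino acid responses. SERPINF1, the antiangiogenic factor PEDF, was at 49.9 and 48.5 TPM against 11.3 and 9.28 TPM, and the small heat shock protein HSPB3 was at 57.1 and 54.3 TPM against 9.61 and 14.1 TPM. These last 3 stayed called without each plate.

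Classical hypoxia genes were raised in part. Of 31 tested hypoxia targets 4 rose and 1 fell, with a median of 0.37. CA9, the cell-surface carbonic anhydrase that regulates pH (chromosome 9, 35673925 to 35681156), was at 4.55 and 7.73 TPM at atmospheric oxygen and 82.8 and 75.9 TPM at 3% oxygen, 12.9-fold higher (log2 fold change 3.63 ± 0.48, limma adjusted p = 0.000476). AK4, a mitochondrial adenylate kinase, was at 12.8 and 12.4 TPM against 42.3 and 43.4 TPM. BNIP3, a receptor of mitophagy (chromosome 10, 133781188 to 133795471), was at 132 and 128 TPM against 391 and 374 TPM. In AK4 and BNIP3 the 2 plates of each group were close, while the atmospheric plates of CA9 were further apart. The groups of each of these genes lay well apart. LOXL2, a lysyl oxidase that crosslinks collagen, was at 214 and 269 TPM against 601 and 568 TPM. The 4 rises were called whichever plate was left out, and the fall of STC2, a secreted glycoprotein, from 152 and 185 TPM to 71.7 and 67.5 TPM, was called in none of those fits. Other well-known targets did not pass. VEGFA, the endothelial growth factor, was at 91.0 and 77.3 TPM against 62.5 and 66.8 TPM, and NDRG1 at 140.4 and 111 TPM against 189 and 169 TPM. ADM, adrenomedullin, was at 181 and 246 TPM against 202 and 172 TPM, with overlapping groups.

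No gene of the oxygen-sensing system itself was called by limma among 9 tested. An unadjusted limma p under 0.05 was reached by 4 of them, beside 4747 of all 12049 genes tested. EPAS1, which encodes HIF-2 alpha, was at 303 and 265 TPM against 142 and 153 TPM at 3% oxygen and missed the fold limit at -0.94 ± 0.13, although its limma adjusted p was 0.000535. It passed the limit without atmospheric replicate b and under median-ratio rescaling. CITED2, a HIF-induced competitor of HIF at its coactivators, was at 327 and 391 TPM against 590.3 and 563 TPM and was not called. The hydroxylase gene EGLN1 was at 29.4 and 25.6 TPM against 36.7 and 36.9 TPM.

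Some glycolytic genes rose, by factors just past the fold limit. Of 20 tested 4 rose, 19 were higher (17 after median-ratio rescaling) and the median was 0.52. Of all genes 2.13% were called higher and 58.9% were higher by any amount. TPI1, triosephosphate isomerase, was at 520.2 and 533 TPM against 1250.4 and 1221 TPM at 3% oxygen (log2 fold change 1.23 ± 0.09, limma adjusted p = 1.72e-05). LDHA, the lactate dehydrogenase subunit, had a log2 change of 1.19 ± 0.15, PDK1, which restrains pyruvate entry into mitochondria, 1.22 ± 0.18, and PGK1, phosphoglycerate kinase, 1.08 ± 0.19. PFKP and ENO1, at 0.99 ± 0.11 and 0.78 ± 0.08, passed the p threshold but not the fold limit. Without atmospheric replicate a, atmospheric replicate b, 3% replicate a or 3% replicate b the fit called 3, 4, 3 and 3 of the list, with TPI1 and LDHA called each time. Median-ratio rescaling called 3.

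The HIF-binding core, ACGTG or GCGTG on either strand, is common, so it is shown for only 2 promoters that carry clusters of it. It occurred in the 200-base windows of 20 of 31 hypoxia targets (64.5%), 14 of 20 glycolysis genes (70.0%) and 50.1% of all genes tested. Called rises held it in 48.6% of windows and called falls in 45.6%, so the rises were not richer in it than all genes. Other lists varied, with 71.4% for cholesterol and fatty acid synthesis, 70.6% for mitosis and 23.8% for cytokines and chemokines. Capitals mark the matches, and matches on the 2 strands can overlap and merge into 1 run of capitals.
LDHA (chr11:18415992-18416086, plus strand): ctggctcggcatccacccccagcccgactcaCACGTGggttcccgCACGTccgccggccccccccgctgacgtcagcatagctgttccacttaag
BNIP3 (chr10:133795482-133795576, minus strand): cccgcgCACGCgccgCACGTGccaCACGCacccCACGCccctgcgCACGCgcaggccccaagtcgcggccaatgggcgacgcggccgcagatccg
The LDHA window held 5 matches, of which 3 are shown, and the BNIP3 window held 6, all shown.

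Collagen-modifying enzymes and collagens were mostly not called. PLOD2, which hydroxylates collagen lysines, was the only call of 16 modifying enzymes, at 120.4 and 103 TPM against 451 and 418 TPM at 3% oxygen, and stayed called without each plate. Of 21 collagen chains COL11A1, a fibrillar chain, rose from 15.5 and 16.5 TPM to 46.99 and 42.4 TPM, a call kept without atmospheric replicate b or 3% replicate b only. COL14A1 was at 3.89 and 3.69 TPM against 0.536 and 0.279 TPM and COL5A3 at 18.9 and 22.6 TPM against 4.50 and 4.45 TPM. Both of these falls stayed called without each plate. Of 15 glycosaminoglycan and matricellular genes 1 rose and 1 fell. HAS2, which synthesizes hyaluronan, was at 14.2 and 13.01 TPM at atmospheric oxygen and 109 and 97.8 TPM at 3% oxygen (log2 fold change 2.88 ± 0.22, limma adjusted p = 2.72e-05). DCN, the proteoglycan decorin, was at 1981 and 1762 TPM against 617 and 591 TPM, and was called in no fit without a plate. LUM, the related lumican, was at 4576 and 4051 TPM against 1777 and 1766 TPM and did not pass (limma adjusted p = 0.0538).

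Inhibitors of differentiation, targets of bone morphogenetic protein (BMP) signalling, rose together. ID1, ID2 and ID3 were called higher among 11 tested ID and BMP genes, beside 2.13% of all genes, and the median of the 11 was 0.73. ID3 (chromosome 1, 23884417 to 23885992) was at 18.04 and 31.8 TPM at atmospheric oxygen and 161 and 150.2 TPM at 3% oxygen (log2 fold change 2.67 ± 0.38, limma adjusted p = 0.000742). ID1 was at 6.15 and 13.4 TPM against 59.9 and 51.9 TPM, with the atmospheric plates over 2-fold apart, and ID2 was at 12.4 and 15.2 TPM against 58.7 and 57.8 TPM (2.05 ± 0.16). ID4 was also called but was far lower, at 0.0782 and 0.243 TPM against 1.03 and 1.08 TPM. The ligand BMP2 fell, from 2.78 and 2.46 TPM to 0.534 and 0.457 TPM. ID4 and BMP2 averaged 1 TPM or more only in the group where each was higher, so they could hardly be called the other way. Without atmospheric replicate a, atmospheric replicate b, 3% replicate a or 3% replicate b the fit called 2, 3, 2 and 2 ID genes, with ID2 and ID3 called each time, and BMP2 stayed called in all of them.

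Of 24 tested contractile and TGF-beta response genes 4 rose and none fell, with a median of 0.35. TGFBI, a secreted adhesion protein induced by TGF-beta (chromosome 5, 135364677 to 135399507), was at 32.04 and 37.1 TPM against 195 and 199 TPM at 3% oxygen (log2 fold change 2.49 ± 0.10, limma adjusted p = 5.92e-07). FN1, fibronectin, was at 962 and 998 TPM against 2741 and 2356 TPM. FBN1, fibrillin-1, was at 86.5 and 84.01 TPM against 268 and 198 TPM, and CNN1, the smooth muscle protein calponin, at 25.6 and 27.3 TPM against 61.2 and 58.3 TPM. Each fit without 1 plate called TGFBI and FBN1 only.

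Keratins, filaments better known from epithelia and hair, rose in 3 of 12 tested genes (median 0.90). KRT34, a hair keratin (chromosome 17, 39533921 to 39538558), was at 5.79 and 7.94 TPM at atmospheric oxygen and 98.2 and 99.2 TPM at 3% oxygen (log2 fold change 3.77 ± 0.34, limma adjusted p = 5.98e-05). KRT81, another hair keratin, was at 2.14 and 2.97 TPM against 43.4 and 35.1 TPM, an uncertain level because KRT86 is a near copy. KRT18 was at 248 and 289 TPM against 625 and 645 TPM. All 3 stayed called without each plate. KRT8, the usual partner of KRT18, was at 50.7 and 52.7 TPM against 30.04 and 29.7 TPM and did not pass. The epithelial markers above stayed under 1 TPM apart from CDH1, which was at 2.59 TPM in 3% replicate b only.

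**Figure D3:**
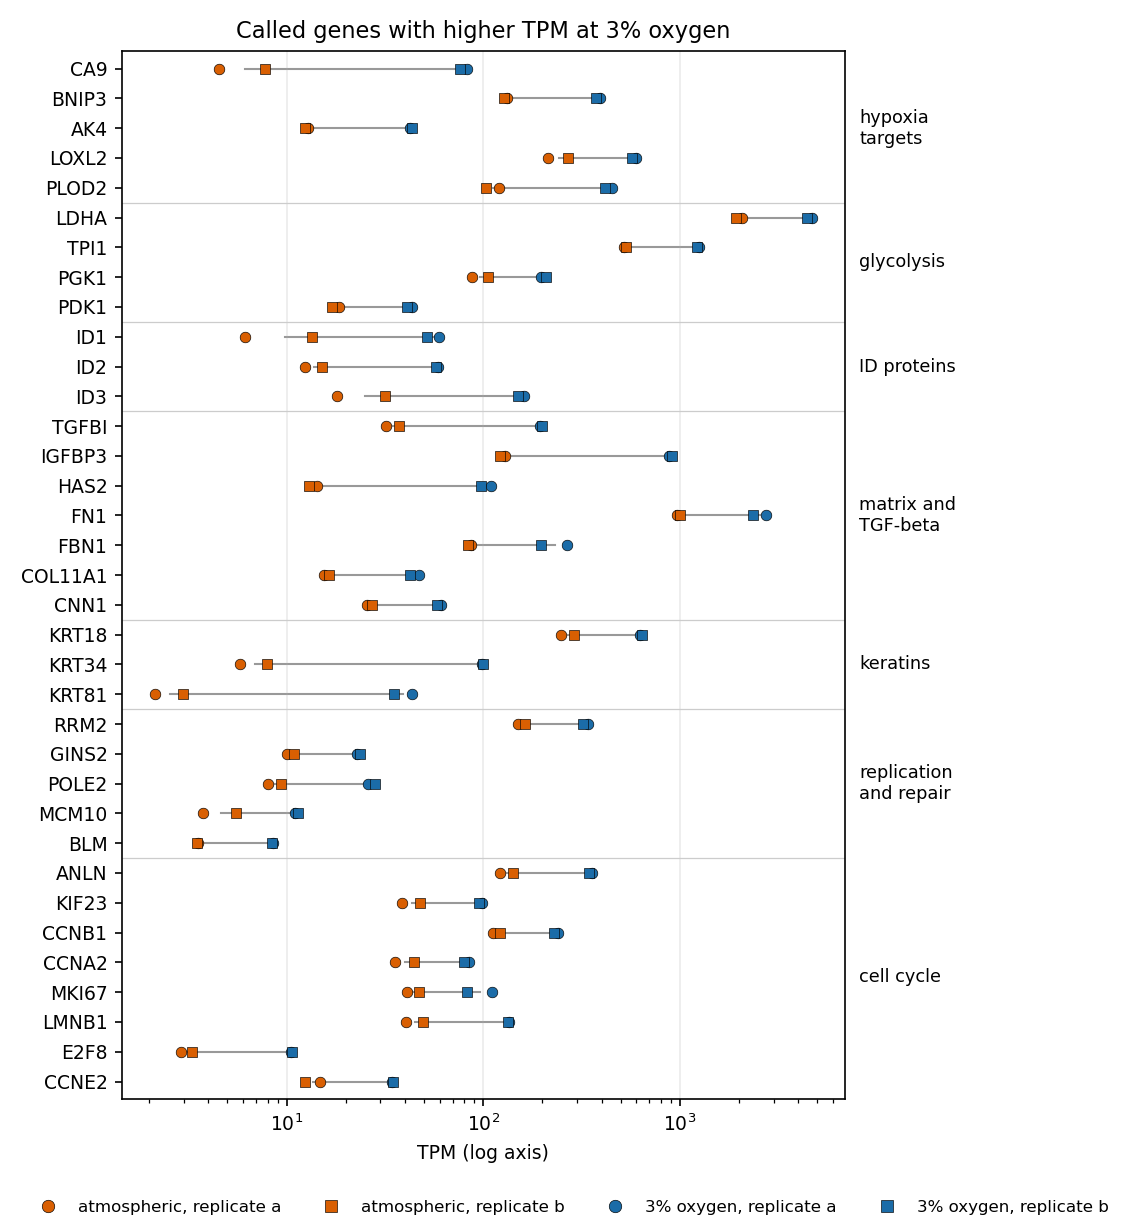
TPM (log scale) of genes that rose at 3% oxygen, 1 dot per library for both atmospheric and both 3% libraries of immortalized cells, with a line joining the 2 group means. The 3% pairs lie above the atmospheric pairs in every gene shown, by 12.9-fold in CA9 and 14.4-fold in KRT34.

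Genes of proliferation were higher at 3% oxygen as groups, by about the size of the fold limit. All 34 mitotic genes and all 33 replication genes were higher, beside 58.9% of all genes, and stayed so after median-ratio rescaling. Only 5 of each were called, beside 2.13% of all genes called higher, and the medians were 0.91 and 0.82. Members of a list were measured on the same plates, so they do not count as independent evidence. ANLN, the anillin of the cleavage furrow (chromosome 7, 36429430 to 36493400), was at 122 and 142 TPM at atmospheric oxygen and 358 and 343 TPM at 3% oxygen (log2 fold change 1.41 ± 0.17, limma adjusted p = 0.0002703). KIF23, a kinesin of the central spindle, was at 38.8 and 47.5 TPM against 98.1 and 95.5 TPM. MKI67, the proliferation marker Ki-67 (chromosome 10, 129894923 to 129924687), was at 40.9 and 47.01 TPM against 110.2 and 82.8 TPM, with the 3% plates further apart. CCNA2 and CCNB1, cyclins of S phase and mitosis, had log2 changes of 1.03 ± 0.13 and 1.01 ± 0.15. Without atmospheric replicate a, atmospheric replicate b, 3% replicate a or 3% replicate b the fit called 2, 6, 2 and 4 mitotic genes, with KIF23 and ANLN called each time. Median-ratio rescaling called 2.

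The replication calls included RRM2, which supplies deoxynucleotides, GINS2 and MCM10 of the helicase, and the polymerase subunit POLE2. RRM2 was at 151 and 163 TPM against 342 and 320.1 TPM at 3% oxygen, and POLE2 at 8.08 and 9.36 TPM against 25.9 and 28.01 TPM. The fits without atmospheric replicate a, atmospheric replicate b, 3% replicate a and 3% replicate b called 2, 6, 4 and 5 of the list, with GINS2 and RRM2 called each time, and median-ratio rescaling called 2. Among 20 genes of homologous recombination and the Fanconi pathway 3 rose, all 20 were higher, also after median-ratio rescaling, and the median was 0.81. Of all genes 2.13% were called higher and 58.9% were higher by any amount. The helicase BLM was at 3.54 and 3.49 TPM against 8.54 and 8.402 TPM. The fits without each plate in the same order called 3, 5, 3 and 2, with BLM among them each time.

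Of 23 tested genes in the list of CDK inhibitors, CDKs, cyclins, E2F and RB genes, which also holds LMNB1, 4 rose, with a median of 0.30. LMNB1, lamin B1, was at 40.7 and 49.5 TPM against 135 and 134 TPM at 3% oxygen (log2 fold change 1.57 ± 0.12, limma adjusted p = 2.24e-05). E2F8, a repressor of the E2F family, was at 2.89 and 3.31 TPM against 10.6 and 10.7 TPM, and CCNE2, cyclin E2, at 14.7 and 12.4 TPM against 34.5 and 34.7 TPM. These 3 stayed called without each plate. RBL1, the retinoblastoma relative p107, was at 8.77 and 11.1 TPM against 20.7 and 20.9 TPM and was called without atmospheric replicate b only.

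Mitotic promoters carry a known element, the cell cycle homology region, searched here as TTTGAA on both strands. It was found in 19 of 34 mitotic windows (55.9%) and in 6.67% of all windows, and the E2F motifs TTTCCCGC and TTTGGCGC were found in 11 of 33 replication windows (33.3%) and 2.35% of all. MKI67 is shown for its 2 copies and GINS2 for its E2F match, in capitals.
MKI67 (chr10:129924688-129924761, minus strand): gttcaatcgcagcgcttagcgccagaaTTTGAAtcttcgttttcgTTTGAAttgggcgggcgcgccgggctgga
GINS2 (chr16:85722561-85722636, minus strand): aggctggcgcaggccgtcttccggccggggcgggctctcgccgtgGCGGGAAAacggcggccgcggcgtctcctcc
The MKI67 copies lay 47 and 29 bases before the transcript start, and the GINS2 match 31 bases before it.

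Several groups held no call by limma. Among 54 nuclear genes of the respiratory chain, which carry out oxidative phosphorylation, none passed and the median was 0.08, beside 0.11 over all genes. An unadjusted limma p under 0.05 was reached by 10 of the 54, beside 4747 of all 12049 genes tested. The 13 mitochondrially encoded genes were all lower on average, none with separate groups and 0 at an unadjusted p under 0.05, and their median was -0.47. Cytosolic ribosomal proteins (37 genes, median -0.11), telomerase and shelterin genes (13 genes, 0.32), angiogenic ligands and receptors (19 genes, 0.29) and immediate early genes (12 genes, -0.05) held none either, with 9, 6, 11 and 5 of them at an unadjusted p under 0.05. Median-ratio rescaling called 2 angiogenic genes and 1 gene of the telomerase and shelterin list, all lower. That list of 13 includes TPP1, a lysosomal peptidase gene and not the gene of the shelterin protein of that name.

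**Figure D4:**
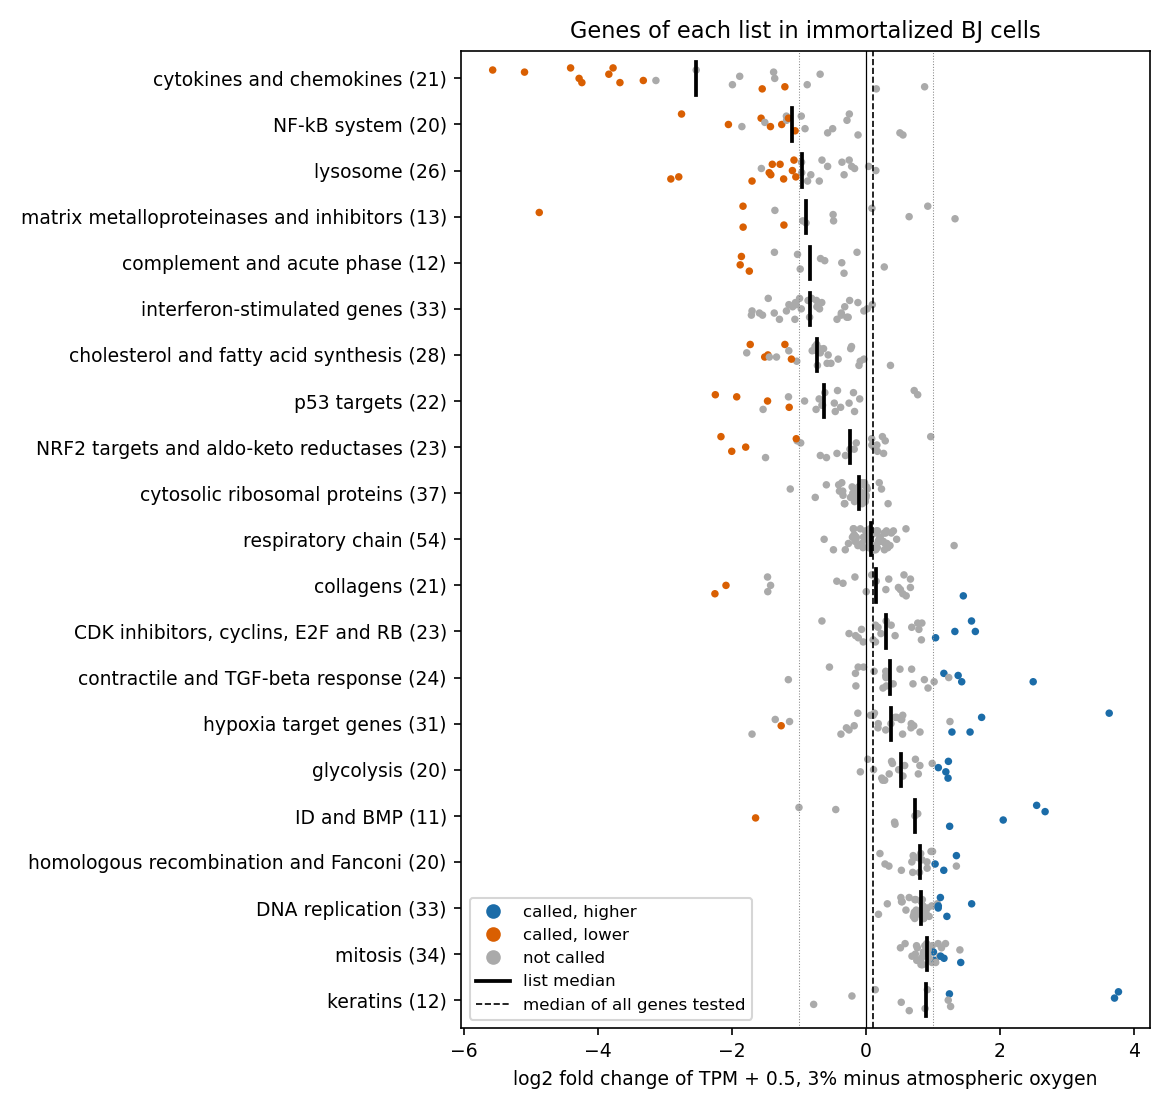
Log2 fold change of every tested member of 21 gene lists at 3% against atmospheric oxygen in immortalized cells, with called genes coloured, the median of each list marked and the median of all genes as a dashed line. Cytokines lie lowest with a median of -2.53, while the members of the mitosis and DNA replication lists all lie above 0.

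Outside these lists the extremes were genes of varied function. C5orf46, which encodes a small secreted peptide (chromosome 5, 147260289 to 147286101), was the largest rise, 44.98-fold in mean TPM. IGFBP3, which binds insulin-like growth factors, was at 128 and 122 TPM against 878 and 909 TPM at 3% oxygen (log2 fold change 2.83 ± 0.32, limma adjusted p = 0.000203). The gap junction gene GJA5 was at 1.26 and 1.22 TPM against 10.5 and 9.96 TPM, and the phosphatase gene PTPRQ at 1.99 and 2.098 TPM against 18.4 and 13.5 TPM. CCDC85A and MALL rose by 2.65 and 2.61 on the log2 scale. WASF2, a regulator of actin, was at 3.33 and 0.546 TPM against 20.6 and 17.3 TPM, with its atmospheric plates far apart, and was called in 2 of the 4 fits that left out a plate.

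Among the falls HSD11B1, which regenerates active glucocorticoid (chromosome 1, 209859523 to 209908294), was at 34.5 and 24.2 TPM at atmospheric oxygen and 0.635 and 0.373 TPM at 3% oxygen (log2 fold change -4.89 ± 0.67, limma adjusted p = 0.000583). ADORA2A, an adenosine receptor, was at 20.99 and 17.3 TPM against 0 and 0.764 TPM. ELF3, an ETS-family factor known from epithelia, was at 19.2 and 13.5 TPM against 0.5501 and 0.349 TPM. HSD11B1 and ELF3 stayed called without each plate, and ADORA2A was called in none of those 4 fits nor with the replicate letter as a block (limma adjusted p = 0.0154). These are genes that were readily detected at atmospheric oxygen and stood under 1 TPM at 3% oxygen. IL13RA2, a decoy receptor of interleukin-13, was at 30.8 and 18.2 TPM against 0.955 and 1.11 TPM, and RIPOR3 at 17.4 and 12.8 TPM against 0.258 and 0.925 TPM. RIPOR3 likewise was called in no fit without a plate, nor with the block (limma adjusted p = 0.0206). The pepsinogen gene PGA4 was at 22.5 and 33.9 TPM against 0.106 and 0.763 TPM. PGA3, PGA4 and PGA5 are near-identical, and their sum was 31.6 and 40.9 TPM against 1.41 and 2.11 TPM, 20.6-fold lower.

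The response was then set against the same oxygen contrast in the stage before. Of 12632 genes tested for a difference between the immortalized and primary effects, 232 (1.84%) passed, 99 (0.784%) with the immortalized effect higher and 133 (1.05%) lower. Primary cells had 639 called genes, and 129 were called in both stages, 22.01% of the immortalized and 20.2% of the primary calls, 120 of them in the same direction. CXCL8 lay on opposite sides of 0 in the primary and immortalized effects. In primary cells CXCL8 was at 2.25 and 1.19 TPM at atmospheric oxygen and 11.9 and 4.97 TPM at 3% oxygen, a change that did not pass there (1.93 ± 0.75), and the difference between the effects was -7.03 ± 1.06 on the log2 scale (limma adjusted p = 0.00336). CXCL3 differed by -5.55 ± 0.91. CXCL2 was the third of 22 tested cytokines to pass, but it averaged under 1 TPM at both oxygen levels in primary cells and entered the test only through the immortalized cells, so no difference is given for it. As many as 17 of the 232 calls were under 1 TPM in that way in primary cells and 20 in immortalized cells. The CXCL8 and CXCL3 calls did not withstand the loss of a library. With 1 of the 8 left out in turn, CXCL8 passed only without bj_3 replicate b (limma adjusted p = 0.00777) and was at 0.0203 without htert_atm replicate a. CXCL3 passed in none of the 8 fits (limma adjusted p from 0.0151 to 0.0271). MMP3 in primary cells was at 238 and 264 TPM against 215 and 288 TPM at 3% oxygen, and the difference was -4.86 ± 0.47 (limma adjusted p = 0.000367). CTSB was 1 of 4 lysosomal genes that differed, by -1.28 ± 0.14.

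Sterol genes were the list with the most calls in that difference, 10 of 28 and all lower in immortalized cells. DHCR7 in primary cells was at 18.2 and 21.7 TPM against 52.04 and 53.2 TPM at 3% oxygen, and the effects differed by -2.89 ± 0.28 (limma adjusted p = 0.000373). SCD differed by -2.79 ± 0.48 and INSIG1 by -1.86 ± 0.24. Among rises, ID2 differed by 2.44 ± 0.22, KRT34 by 2.84 ± 0.48 and KRT81 by 3.04 ± 0.42, all higher in immortalized cells. AK4 rose in both stages but less in immortalized cells, from 3.97 and 3.37 TPM to 57.2 and 58.1 TPM in primary cells, a difference of -2.08 ± 0.18. No mitotic, replication, recombination or NF-kB system gene passed the limma test of the difference. An unadjusted limma p under 0.05 was reached by 7 of 34, 9 of 33, 2 of 20 and 13 of 20 of them. Over all genes 2775 of 12632 reached it. Of the genes in this paragraph, DHCR7, ID2 and AK4 passed in all 8 fits that left out 1 library. INSIG1 missed the threshold without htert_3 replicate a (limma adjusted p = 0.0103). KRT81 passed in 3 of the 8 (0.00482 to 0.0145), and SCD (0.0216 to 0.0302) and KRT34 (0.0147 to 0.0316) passed in none. The count of 232 needs all 8 libraries. Without htert_3 replicate a or b it was 76 or 74, and without htert_atm replicate a or b 89 or 116. Without bj_3 replicate a or b it was 99 or 127, and without bj_atm replicate a or b 131 or 103.

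More genes differed from the stage after. Between the immortalized and transformed effects 1516 of 12715 genes (11.9%) passed, 741 (5.83%) with the immortalized effect higher and 775 (6.10%) lower. Under median-ratio rescaling 479 of 1450 were higher. Of the 1516, 71 averaged under 1 TPM at both oxygen levels in transformed cells and 40 did so in immortalized cells. These entered the test through the other stage only. Of the 910 genes called in transformed cells 90 were also called in immortalized cells, 9.89% of the former and 15.4% of the latter, and 59 of the 90 changed in opposite directions, 45 of them lower here and higher there. CXCL8 in transformed cells was at 31.6 and 31.1 TPM at atmospheric oxygen and 191 and 1385 TPM at 3% oxygen, and the effects differed by -9.11 ± 1.06 (limma adjusted p = 0.000155). IL1B was at 1.89 and 3.22 TPM against 28.1 and 155 TPM there, a difference of -8.26 ± 1.05. IL6 and SOD2 differed by -5.75 ± 1.01 and -5.54 ± 0.64. In both the transformed 3% plates were far apart. IL6 was at 37.0 and 46.6 TPM against 58.0 and 536 TPM there, and SOD2 at 69.9 and 78.4 TPM against 157 and 533 TPM. In all, 15 of 23 cytokines and 13 of 26 lysosomal genes, CTSK among them at -3.97 ± 0.54, were lower in the immortalized effect.

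ID genes turned the other way. In transformed cells ID1 was at 53.9 and 45.98 TPM against 2.62 and 2.74 TPM at 3% oxygen, and the effects differed by 6.53 ± 0.57. ID3 was at 186 and 168 TPM against 7.46 and 7.63 TPM, a difference of 7.14 ± 0.54 (limma adjusted p = 1.64e-05). IGFBP3 differed by 4.88 ± 0.45 and TGFBI by 1.85 ± 0.14. Proliferation genes were higher in the immortalized effect in 11 of 34 mitotic, 7 of 33 replication and 8 of 20 recombination genes, with ANLN at 1.46 ± 0.24, and LMNB1 differed by 1.78 ± 0.16. Hypoxia targets were lower in 9 of 31 and higher in 1. NDRG1 in transformed cells was at 14.4 and 15.3 TPM against 344 and 384 TPM at 3% oxygen, a difference of -4.05 ± 0.42. STC1, a secreted glycoprotein, was at 6.08 and 5.86 TPM against 59.2 and 88.7 TPM there and at 332 and 203 TPM against 86.99 and 72.6 TPM in immortalized cells, a difference of -5.20 ± 0.84. ASS1 differed by -4.74 ± 0.41. Leaving out 1 of the 8 libraries in turn gave 986 (without htert_3 replicate b) to 1444 (without sv_3 replicate a) genes, with 992 without sv_atm replicate b and 1010 without htert_3 replicate a. Both differences share the 4 immortalized libraries, so they are not independent of each other.

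**Figure D5:**
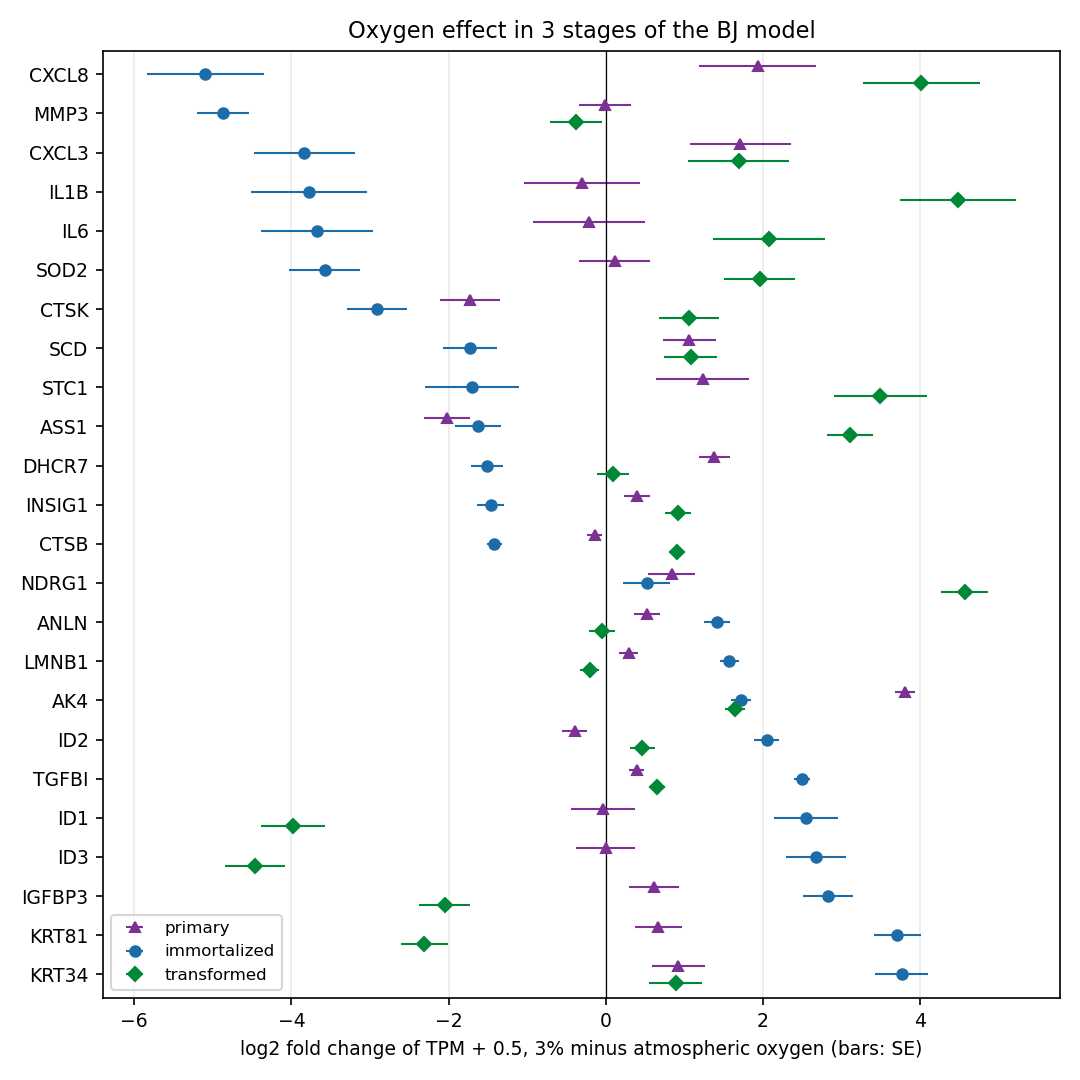
Log2 fold change at 3% against atmospheric oxygen, with its standard error, in primary, immortalized and transformed cells for genes whose effects differed between stages. CXCL8 stands at 1.93 ± 0.75 in primary, -5.10 ± 0.75 in immortalized and 4.02 ± 0.75 in transformed cells, and ID3 is positive in immortalized and negative in transformed cells.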

How the data were processed

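RNA from 16 plates of a 4-stage fibroblast model was sequenced as paired-end libraries from a stranded mRNA kit. The authors quantified transcripts with kallisto 0.42.1, per the labels on GRCh37, and deposited TPM, the length-scaled abundance of each transcript, for 180253 transcripts, which sum to 1000000 per library, so depth is unknown and low values carry more error than TPM shows. Here 151453 transcripts matched GENCODE 44 lifted to GRCh37 by identifier, and TPM was summed over 19356 protein-coding genes. TPM is not a count, so no count model was used. Limma 3.58.1 (R 4.3.3) with an intensity trend was fitted to log2(TPM + 0.5) of all 16 libraries with 1 term for each of 8 groups, which leaves 8 residual degrees of freedom. Genes that averaged 1 TPM or more in a compared group were tested with Benjamini-Hochberg adjustment, and called at an adjusted p under 0.01 and a 2-fold change. An exact permutation test of 2 against 2 plates cannot give a p under 0.333. The ± values are standard errors of the fit.

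In a simulation 200 genes of at least 5 TPM were changed by 2 on the log2 scale, with noise drawn independently for each library. Of these 187 (93.5%) were recovered among 11965 tested, with 0 false calls. Real calls went down to 2-fold and 1 TPM, so the simulation does not describe smaller changes, lower levels or plates that are not independent. Genes of the lists were named by their calls and up to 3 uncalled members, some lists with more, and outside them the 12 largest rises and falls among called genes of at least 5 TPM. The members, lists and genes were chosen with earlier results of these data known. Alternatives changed the pseudocount, the filter, the scaling, the libraries fitted, the trend, the weights and the threshold, left out each library, or blocked on the replicate letter. Some list members are counted but not reported here by name. Promoter letters came from the GRCh37 genome. Python 3.11.15 was used for sums and figures.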

Additional observations from a re-analysis of the deposited data

Results flagged for a closer look

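The results below are differences between the oxygen effect in immortalized cells and that in a neighbouring stage, each tested as an interaction in the limma fit. They share the 4 immortalized libraries. In all, 232 genes differed from primary cells and 1516 from transformed cells. Both counts include genes that averaged under 1 TPM at both oxygen levels of 1 stage, none of them named below.

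Against primary cells the differences in log2 fold change were negative for most of the genes named here. CXCL8 stood at -7.03, CXCL3 at -5.55 and MMP3 at -4.86. DHCR7 was at -2.89, SCD at -2.79, AK4 at -2.08, INSIG1 at -1.86 and CTSB at -1.28. The difference was 3.04 for KRT81, 2.84 for KRT34 and 2.44 for ID2. Of the lower ones AK4 rose in both stages, while DHCR7 rose in primary cells (1.38 ± 0.20) and fell in immortalized cells (-1.51 ± 0.20). The calls of CXCL3, SCD and KRT34 were lost in every fit without 1 library, and those of CXCL8, KRT81 and INSIG1 in some.

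Against transformed cells the difference was -9.11 for CXCL8, -8.26 for IL1B, -5.75 for IL6 and -5.54 for SOD2. It was -5.20 for STC1, -4.74 for ASS1, -4.05 for NDRG1 and -3.97 for CTSK. It was 7.14 for ID3, 6.53 for ID1, 4.88 for IGFBP3, 1.85 for TGFBI, 1.78 for LMNB1 and 1.46 for ANLN. IL1B, ID1 and ID3 were called in opposite directions in the 2 stages, with effects of 4.48 ± 0.74, -3.98 ± 0.40 and -4.46 ± 0.38 in transformed cells.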

How the results depend on the processing

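The count of 586 genes stayed within 1.5 times, from 439 to 843 (array weights), under the alternatives that kept all plates, other than the replicate block (322). It did not when a plate was left out (267 to 338). The replicate letters did not pair the plates: same-letter deviations correlated at -0.11 over 12049 genes. With the letter as a replicate block within each stage 322 genes were called for the oxygen effect, 5 for the difference from primary cells and 887 for that from transformed cells. Pairing the letters crosswise, chosen after seeing the data, gave 439, 25 and 1207. The 232 differences from primary cells became 377 with only the groups compared in the fit, 534 with array weights and 562 at an adjusted p under 0.05, and 74 to 131 without 1 library. The 1516 differences from transformed cells became 986 to 1444 without 1 library. The cause of these moves was not tested, beyond the fewer samples in fits without a plate.

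For 132 genes named in immortalized cells, 1595 of 1707 values under the alternatives that kept all libraries stayed on their side of the threshold, 96 lost their call, 16 gained one and 0 reversed. Without 1 library 156 of 528 lost their call, 3 gained one and 2 reversed, both uncalled and both without atmospheric replicate b: ADM ranged from -0.40 to 0.046 and TERT from -0.51 to 0.23 on the log2 scale over these fits. Of the named differences from primary cells 19 of 143 lost their call with all libraries and 37 of 88 without 1, and of those from transformed cells 1 of 182 and 0 of 112. Depth, which TPM does not hold, could not be weighed.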

Other observations

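A pair of gene families outside the lists was singled out after their values were seen. The pregnancy-specific glycoproteins, secreted members of the CEA family, had 10 genes in the data and 8 tested, of which 6 rose at 3% oxygen, 5 after median-ratio rescaling and 3 (PSG1, PSG6 and PSG9) in each fit without a plate. Their summed level was 117 and 130 TPM at atmospheric oxygen and 338 and 341 TPM at 3% oxygen, 2.75-fold higher, and most of it came from PSG5. PSG5 was at 105 and 116 TPM against 270.2 and 274 TPM, and PSG1 at 5.67 and 6.48 TPM against 36.9 and 38.0 TPM. These genes are near-identical, so the split among them is uncertain and the sum is the safer value.

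Splicing factors of the SRSF and TRA2 families had 14 genes and 13 tested, of which 4 rose and none fell. These 4 lay just past the 2-fold limit, and none was called after median-ratio rescaling (0.88 to 0.99 on the log2 scale) or in all 4 fits without a plate. SRSF7 was at 88.2 and 93.7 TPM against 199 and 201 TPM, SRSF6 at 83.3 and 74.9 TPM against 155 and 170.4 TPM, SRSF10 at 43.2 and 45.4 TPM against 91.7 and 88.8 TPM and TRA2A at 39.1 and 41.8 TPM against 86.5 and 88.9 TPM. The family sum was 1349 and 1324 TPM at atmospheric oxygen and 2004 and 2023 TPM at 3% oxygen.

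Shifts in transcript usage were read beside the spread between plates. Among 7496 genes of at least 10 TPM in both groups, 141 had a transcript whose share of its gene moved by over 25 percentage points between oxygen levels. As many as 375 did so between the 2 atmospheric plates and 198 between the 3% plates, while 72 did so between the letters a and b, each averaged over both oxygen levels as the groups are over plates. Single plates also held isolated high values. Among genes of at least 10 TPM, 38 of 8157 differed over 4-fold between the atmospheric plates and 35 of 8136 between the 3% plates, and none of these was called. MDM2, the p53 inhibitor, was at 315 TPM in 3% replicate a and 32.7 TPM in 3% replicate b.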
